A study of Mus musculus with 3 samples.

Results

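The 10 genes described here carry out or control presentation of peptides on MHC class I: the heavy chain genes H2-D1, H2-K1, H2-T23 and H2-Q4, the light chain gene B2m, the peptide transporter genes Tap1 and Tap2, the tapasin gene Tapbp, the peptidase gene Erap1 and the transactivator gene Nlrc5. They were taken by symbol from the 55536 genes of the GENCODE M21 annotation of mm10, and each symbol matched 1 gene row. The cells were macrophages grown from bone marrow of C57BL/6J mice (BMDM), all of which had received 100 ng/ml lipid A, a TLR4 agonist, for 120 min. RNA of the cytosolic fraction was depleted of ribosomal RNA and sequenced in 3 libraries, labelled biological replicates 1, 2 and 3, with 1 µg of RNA going into each. Age and sex were not collected, the labels name 1 donor entry for all libraries, and they do not say whether separate animals were used, so the spread between libraries may be technical. With no untreated cells, no other time and no other fraction analysed here, the values are levels at 1 time, and nothing was compared between conditions.

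Class I molecules display short peptides from proteins made inside the cell to CD8+ T cells and natural killer cells. Peptides cut by the proteasome are pumped into the endoplasmic reticulum by the TAP1-TAP2 transporter, trimmed there by ERAP1, and loaded with the help of tapasin onto a heavy chain paired with beta-2-microglobulin. Only a loaded complex is stable at the surface, and in mouse macrophages several of these genes are known targets of interferon, NF-kB and NLRC5.

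In all, 7 of the 10 genes lie on chromosome 17, in the MHC and its border, between bases 33915899 and 36032855 of mm10. H2-K1 (33996017 to 34000347) and H2-T23 (36029773 to 36032855) are on the minus strand of chromosome 17. The plus strand of chromosome 17 carries Tapbp (33915899 to 33929292), Tap1 (34187553 to 34197225), Tap2 (34203527 to 34216321), H2-D1 (35262730 to 35267499) and H2-Q4 (35379617 to 35385290). B2m lies on chromosome 2 (122147686 to 122153083, plus strand), Erap1 on chromosome 13 (74639568 to 74693201, plus strand) and Nlrc5 on chromosome 8 (94434356 to 94527272, plus strand).

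H2-K1, H2-D1, H2-Q4 and B2m hold the same 4 short motifs upstream of their RefSeq start sites, so the 200 bases before the RefSeq start of H2-K1, of H2-Q4 and, up to the base before the annotated transcript, of B2m are printed here from RefSeq on GRCm38.p6 (mm10), each 5′ to 3′ on the gene's own strand. Capitals mark matches, on either strand, to the NF-kB consensus, to AANNGAAA (a sequence read by interferon regulatory factors), to TGACG (the core of a cyclic AMP response element) and to CCAAT. Matches to the NF-kB consensus overlap one another and are printed as 1 run. The motifs were chosen after the sequences had been seen. These 3 stretches lie outside annotated UTRs.
H2-K1, chr17:34000348-34000547, minus strand: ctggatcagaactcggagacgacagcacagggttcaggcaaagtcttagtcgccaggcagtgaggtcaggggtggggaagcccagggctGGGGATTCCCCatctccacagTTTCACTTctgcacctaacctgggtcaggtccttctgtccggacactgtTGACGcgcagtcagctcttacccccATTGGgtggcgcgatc
H2-Q4, chr17:35379417-35379616, plus strand: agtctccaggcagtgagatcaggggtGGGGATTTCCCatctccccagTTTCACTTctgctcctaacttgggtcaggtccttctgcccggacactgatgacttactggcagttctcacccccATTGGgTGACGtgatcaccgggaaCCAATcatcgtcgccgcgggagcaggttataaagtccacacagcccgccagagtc
B2m, chr2:122147486-122147685, plus strand: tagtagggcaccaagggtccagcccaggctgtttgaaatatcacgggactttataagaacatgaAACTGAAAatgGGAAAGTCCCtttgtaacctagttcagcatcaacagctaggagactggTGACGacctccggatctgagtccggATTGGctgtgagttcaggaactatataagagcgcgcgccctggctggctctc

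Of the members, 8 had an entry in the promoter table, and the 250 bases upstream of H2-K1, H2-D1, H2-Q4 and B2m each held all 4 motifs. All 4 were found together in 22 of 32851 windows of that length (0.067%). Taken singly, the NF-kB consensus was found in 3.90%, AANNGAAA in 21.3%, TGACG in 17.8% and CCAAT in 33.8%. Because the motifs were chosen after the sequences had been seen, these shares are a description and test nothing. H2-T23 held AANNGAAA at 2 places and CCAAT, Tap1 held TGACG and CCAAT, and Tapbp held CCAAT at 2 places. No match to these letters was found in the window of Erap1. RefSeq and GENCODE starts differ for some genes, and UTRs annotated by GENCODE were counted for any gene on either strand. They cover all 250 bases of the H2-D1 and Erap1 windows, 246 of Tap1, 244 of Tapbp and 154 of H2-T23. The windows of H2-D1, Erap1, Tapbp and, in part, H2-T23 lie inside the annotated gene. In Tap1 the starts differ by only 3 bases, so nearly all of its window lies upstream of Tap1. Most of the UTR bases in that window thus belong to another gene. The stretch from the NF-kB match to the interferon regulatory factor match was 29 bases in all 3 heavy chain genes that held both, and is shown to compare them.
H2-K1, chr17:34000430-34000458, minus strand: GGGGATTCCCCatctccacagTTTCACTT
H2-D1, chr17:35262923-35262951, plus strand: GGGGATTCCCCatctcctcagTTTCACTT
H2-Q4, chr17:35379443-35379471, plus strand: GGGGATTTCCCatctccccagTTTCACTT
The H2-K1 and H2-D1 stretches differed at 1 of 29 bases, and H2-Q4 differed from each of them at 2. It began 111 bases upstream of the RefSeq start in H2-K1, 171 in H2-D1 and 174 in H2-Q4. In B2m the order was turned round, with the interferon regulatory factor match at 137 to 130 bases upstream and the NF-kB match at 126 to 117. The place of TGACG also differed. In H2-K1 (41 to 37), H2-D1 (101 to 97) and B2m (78 to 74) it lay farther upstream than any CCAAT match. In H2-Q4 it lay at 73 to 69, between CCAAT matches at 79 to 75 and 55 to 51. A match describes the letters only; binding was not measured.

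All 10 genes were detected, taken as a TPM (a share of all transcripts, corrected for RNA length) of at least 1 in every library. Detection at that level was reached by 15.7% of all 55536 genes and by 37.6% of nuclear protein-coding genes. Together they took 0.424%, 0.378% and 0.363% of all TPM in replicates 1, 2 and 3. Nuclear protein-coding genes held 23.5%, 21.1% and 22.03% of all TPM, and of that the members' shares were 1.80%, 1.79% and 1.65%. The order by mean TPM was B2m, H2-D1, H2-K1, Tapbp, H2-T23, H2-Q4, Tap1, Tap2, Erap1 and Nlrc5, and each gene exceeded the next in 3 of 3 libraries. Ranges over libraries overlapped only between Tap2 and Erap1 and between Erap1 and Nlrc5. In TPM rescaled to nuclear protein-coding genes, Erap1 (46.7 to 56.1) and Nlrc5 (28.8 to 46.5) no longer overlapped. The order of the 3 lowest genes depended on the measure. By protein-coding transcripts Erap1 was at 11.1, Nlrc5 at 3.69 and Tap2 at 2.96 TPM on average, and in a second quantification deposited with each library (the transcript table in kallisto's layout) Erap1 was at 5.91, Tap2 at 5.45 and Nlrc5 at 3.68 TPM. The other 7 genes kept their order under both measures. With 3 libraries the smallest p that an exact sign test allows is 0.25, so the order is given as a description.

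**Figure D1:**
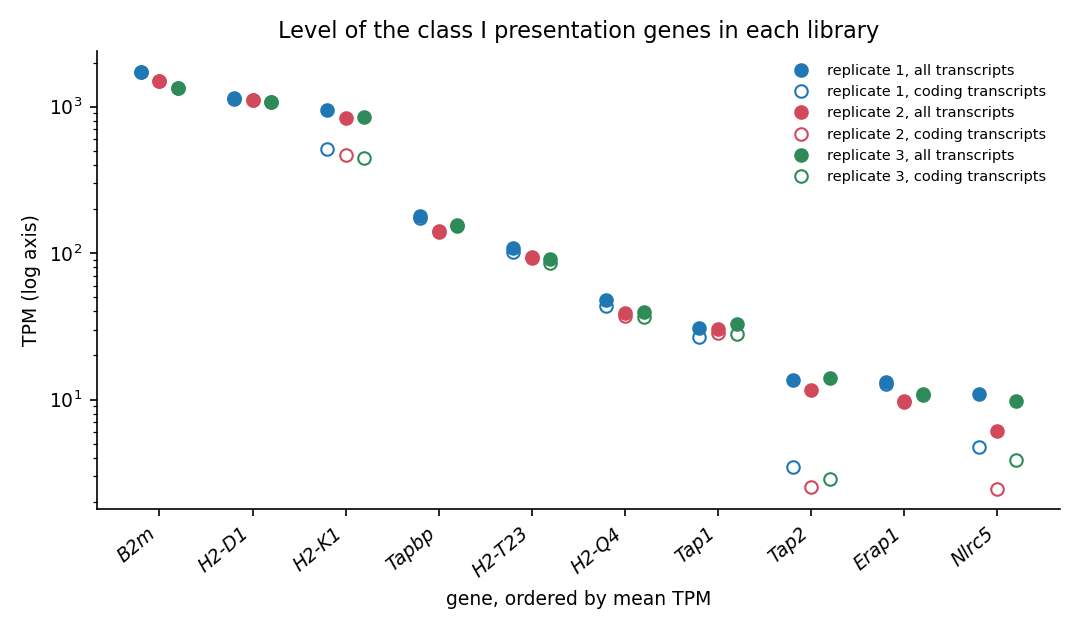
TPM (log axis) of each gene in each of the 3 libraries; filled points add all annotated transcripts of the gene and open points only its protein-coding transcripts. B2m, H2-D1 and H2-K1 lie at 879 to 1527 TPM on average, and the open points fall well below the filled ones for H2-K1, Tap2 and Nlrc5.

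The classical heavy chains, which present peptides to CD8+ T cells, stood far above the nonclassical ones. H2-D1 was at 1141, 1116 and 1074 TPM in replicates 1, 2 and 3 (1110 ± 33.9, SD, n = 3), from 112570, 456375 and 216357 expected counts, and ranked 16th among nuclear protein-coding genes by mean TPM. H2-K1 was at 955, 832 and 852 TPM (879 ± 65.9, n = 3) and ranked 21st. H2-D1 was the higher in every library, and the ranges of the pair did not overlap. The ratio of H2-D1 to H2-K1 was 1.20, 1.34 and 1.26 (1.27 ± 0.0737, n = 3).

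The size of that ratio depended on which transcripts were added. A 2-exon transcript of 457 nt annotated as a retained intron, H2-K1-215, held 44.0%, 42.3% and 45.2% of the TPM of H2-K1. In expected counts it held 12.2% of the gene on average, since its effective length was 234 nt against 1395 nt for the main coding transcript, H2-K1-201. Of its 457 bases, 437 also lie in exons of coding H2-K1 transcripts. H2-K1-201 itself held 39.6%, 42.9% and 39.0% of the TPM of H2-K1 and 67.2% of its counts on average. Adding protein-coding transcripts alone, H2-K1 was at 514, 469 and 449 TPM (477 ± 33.4, n = 3) and the ratio of H2-D1 to H2-K1 was 2.21, 2.38 and 2.38 (2.32 ± 0.0979, n = 3). Almost no H2-D1 RNA was assigned to retained-intron transcripts: H2-D1-202, a coding transcript, held 93.6% of its TPM on average, and all coding transcripts of H2-D1 held 99.7%. H2-D1 has 4 annotated transcripts, 1 of them a retained intron, and H2-K1 has 16, with 7 retained introns. The shares of the 2 genes thus rest on unlike annotation.

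**Figure D2:**
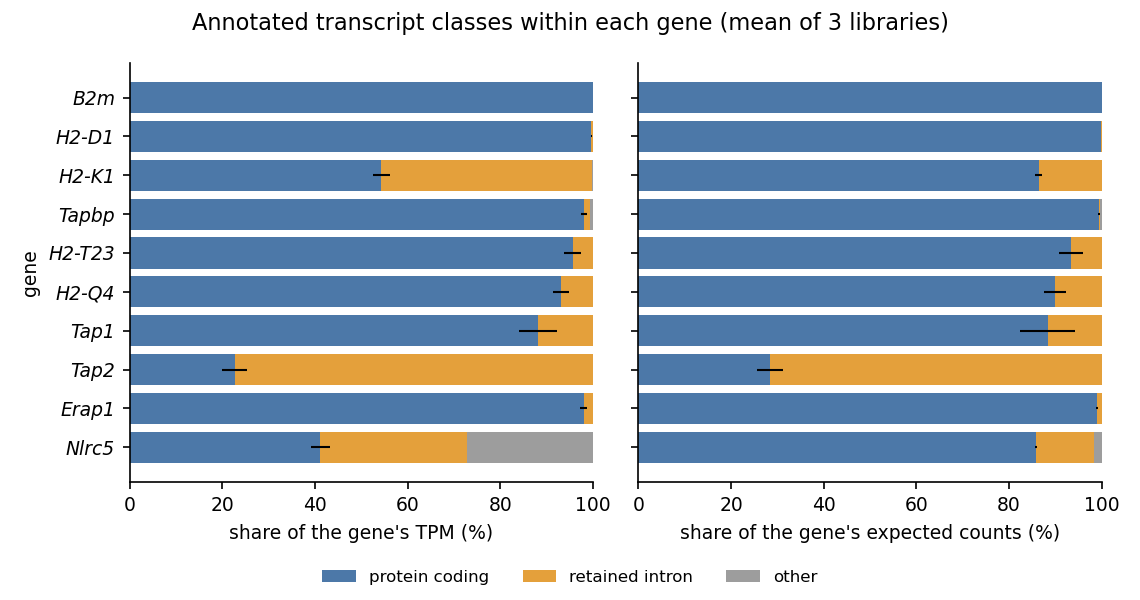
Share of each gene's TPM (left) and of its expected counts (right) in annotated transcript classes, as means of 3 libraries; black bars are the SD of the protein-coding share. The coding share is smaller by TPM than by counts in H2-K1 (54.3% against 86.4%) and in Nlrc5 (41.2% against 85.8%), whereas retained-intron transcripts lead in Tap2 on both scales.

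H2-T23 encodes Qa-1, which displays leader peptides of other class I heavy chains to receptors on natural killer cells. It was at 108, 94.7 and 91.5 TPM (97.97 ± 8.60, n = 3), rank 367, with replicate 1 the highest. H2-Q4, a nonclassical gene of the Q region, was at 48.1, 39.1 and 39.4 TPM (42.2 ± 5.06, n = 3), rank 853, again highest in replicate 1. Both were almost wholly in 1 coding transcript by TPM, H2-T23-201 with 95.6% and H2-Q4-201 with 93.2% on average. The 4 heavy chain members held 96.3% ± 0.451 (n = 3) of the summed TPM of the 26 H2 heavy chain genes listed.

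B2m encodes beta-2-microglobulin, the light chain with which these heavy chains pair. It was the highest member in every library, at 1736, 1499 and 1347 TPM (1527 ± 196, n = 3), rank 12, from 61241, 222434 and 96918 expected counts. It has a single annotated transcript of 860 nt, so none of its level depends on how reads were shared among transcripts. It fell inside the span of Patl2 on the other strand but shared no exon base with it.

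The 4 heavy chain genes added to 2251, 2082 and 2057 TPM, more than B2m in each library. Their ratio to B2m was 1.30, 1.39 and 1.53 (1.40 ± 0.115, n = 3), above 1 in 3 of 3 libraries. Counting protein-coding transcripts alone, the ratio was 1.04, 1.14 and 1.22 (1.13 ± 0.0920, n = 3). In the second quantification it was 1.08 ± 0.101 (n = 3) for coding transcripts, with 0.979 in replicate 1. So heavy chain RNA exceeded B2m RNA in every library under all other measures given here, and in 2 of 3 libraries under that one.

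Tap1 and Tap2 encode the 2 chains of the peptide transporter, which works only as a pair. Tap1 was at 30.7, 30.5 and 33.0 TPM (31.4 ± 1.38, n = 3), rank 1165. Tap2 was at 13.5, 11.6 and 14.0 TPM (13.1 ± 1.25, n = 3), rank 2593. Their ranges did not overlap, and the ratio of Tap1 to Tap2 was 2.27, 2.62 and 2.36 (2.42 ± 0.185, n = 3).

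Most Tap2 RNA was assigned to a transcript that is annotated as noncoding. Tap2-202, a retained-intron transcript of 11 exons and 2561 nt, held 74.3%, 78.3% and 79.4% of the TPM of Tap2 and 71.6% of its counts on average. Of its bases, 2399 lie in exons of coding Tap2 transcripts and 162 lie outside them. The coding transcript Tap2-201 held 24.7%, 21.4% and 20.6% of TPM. Coding transcripts of Tap2 thus added to only 3.48, 2.52 and 2.89 TPM (2.96 ± 0.484, n = 3), and on that measure Tap1 exceeded Tap2 by 7.66, 11.2 and 9.68 times (9.52 ± 1.79, n = 3). The second quantification also put most of Tap2 into Tap2-202 (65.5% ± 5.50, n = 3). On the other strand, Gm15821 overlaps 533 and Gm20496 165 of the 3781 exon bases of Tap2. Because the strand setting of the counting is not given, these overlaps limit the Tap2 level and its ratio to Tap1.

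Tap1 was mainly coding, with 88.1% of TPM in coding transcripts on average. Tap1-206 held 63.6%, 60.4% and 55.7% of TPM and Tap1-201 held 21.9%, 30.3% and 27.0%. The second quantification gave Tap1-206 more, 79.7% ± 4.07 (n = 3), and Tap1-201 only 4.56% ± 3.99 (n = 3), so the split between these coding transcripts was not settled. Tap1 shares 212 bases at its 5′ end with Psmb9, an immunoproteasome subunit gene on the other strand. The strand setting of the counting is not given in the sources used here, so reads in such overlaps cannot be assigned to 1 gene with certainty.

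Tapbp encodes tapasin, which holds empty class I molecules at the transporter. It was at 178, 141 and 156 TPM (158 ± 18.5, n = 3), rank 209, lowest in replicate 2. Its level was 5.05 times that of Tap1 on average (ratio of means). Tapbp-206 held 85.3% of its TPM and Tapbp-201 10.42% on average, both coding. An antisense gene, Gm19412, covers 904 of its 3628 exon bases.

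Erap1, the peptidase of the endoplasmic reticulum that trims peptide ends, was at 13.2, 9.84 and 10.9 TPM (11.3 ± 1.70, n = 3), rank 2904, lowest in replicate 2. Its coding transcript Erap1-201 of 5644 nt held 91.4%, 88.2% and 98.1% of TPM, and 68.4% ± 6.75 (n = 3) in the second quantification. Erap1 overlaps Cast, the calpastatin gene on the other strand, by 834 exon bases.

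Nlrc5, the transactivator of class I genes, was the lowest member by TPM over all transcripts, and over the 3 libraries it had the largest relative spread. It was at 10.9, 6.08 and 9.78 TPM (8.92 ± 2.53, n = 3), rank 3456, from 2261, 4806 and 3677 expected counts. Replicate 2, the most deeply sequenced library, was the low one, and the spread rests on it: without replicate 2, the SD of Nlrc5 was 0.799 on a mean of 10.345 TPM, smaller in relative terms than that of Erap1 (1.58 on 12.1 TPM) or B2m (275 on 1542 TPM). By TPM, 41.2% of Nlrc5 on average lay in coding transcripts, but by counts 85.8% did. The coding transcript Nlrc5-207 of 7578 nt held 42.3%, 39.7% and 37.4% of TPM, and a 346-nt processed transcript, Nlrc5-209, held 17.5%, 19.8% and 18.0% of TPM with only 0.677% of counts on average. A retained-intron transcript, Nlrc5-203, held 31.7%, 26.1% and 25.2% of TPM in the deposited gene quantification but 5.73% ± 0.470 (n = 3) in the second one. All but 2 of its 1727 bases lie in exons, UTRs included, of coding Nlrc5 transcripts. Coding Nlrc5 transcripts alone were at 3.69 ± 1.15 TPM (n = 3), and replicate 2 was the lowest on this measure too.

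The counts of all 10 members varied between libraries by more than counting error, in a Poisson dispersion test with edgeR's TMM scaling and Benjamini-Hochberg adjustment over all genes. This call was made for 62.1% of the 14037 genes tested and for 91.9% of genes with at least the mean count of Nlrc5, so it says little about these genes. The largest adjusted p among the members from edgeR-scaled counts was 9.96e-06, for Tap2. The differences were small in size. In TMM-scaled CPM (counts, scaled by library total but not by length), the highest library exceeded the lowest by 1.14 times at the median of the members. This median was 1.24 times over all genes tested and 1.15 times over genes with at least the mean count of Nlrc5. Among the members, the smallest ratio was 1.06, for Tapbp. Nlrc5 had the largest, 1.63, from 71.0, 43.4 and 61.6 CPM. The biological coefficient of variation is edgeR's estimate of the relative spread left after counting error. With so few libraries, edgeR draws each gene's estimate toward that of genes with like counts. The estimate was 0.175 for Nlrc5, at percentile 55.7 of all genes tested. The median was 0.104 for the members, 0.151 over all genes tested and 0.102 over genes with at least the mean count of Nlrc5. The members' median was near that of genes with such counts, and Nlrc5 lay above it. Because the estimates are drawn toward such genes, this nearness is partly built in, and no conclusion is drawn from it. Without replicate 2, Nlrc5 still passed the test and Erap1 did not.

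**Figure D3:**
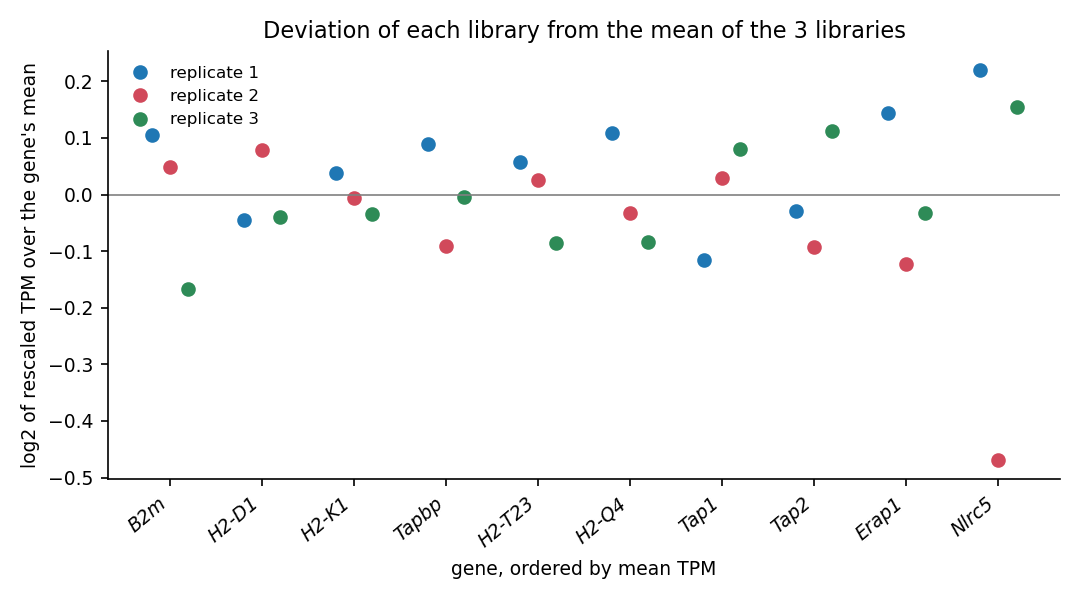
Deviation of each library from the gene's mean, as log2 of the ratio, in TPM rescaled to nuclear protein-coding genes (points are the 3 libraries). Most points lie within 0.2 of the mean, and replicate 2 of Nlrc5 lies farthest, below it.

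Replicate 2 was the lowest library for 7 of the 10 genes in TPM, as for 63.5% of detected genes. After rescaling to nuclear protein-coding TPM it was the lowest for 4 of 10, as for 40.97% of detected genes. Replicate 1 was then the highest for 7 of 10 members and for 41.8% of detected genes, a difference that was not tested. Nuclear noncoding RNA also differed in this library: Malat1 was at 741, 178 and 812 TPM and Neat1 at 42.6, 14.4 and 50.8 TPM, lowest in replicate 2. Added up, retained-intron transcripts moved the same way, with 3.64%, 3.03% and 3.86% of the members' counts and 1.76%, 1.17% and 1.67% of all genes' counts. By gene, their count share was lowest in replicate 2 for 8 of 9 members with such a transcript. Tap2, with the largest share, was lowest in replicate 1 (68.5%, 72.7% and 73.6%). The part of nuclear RNA in the lower Nlrc5 level of replicate 2 was not tested. The coding share of Nlrc5 counts was nearly equal in the 3 libraries, at 85.9%, 86.0% and 85.6%. Almost all bases of the main retained-intron transcript of Nlrc5 lie in exons of coding Nlrc5 transcripts. The coding share thus does not separate nuclear from cytosolic RNA, and no conclusion is drawn from it.

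Because class I heavy chains are near copies of one another, the deposited credibility intervals of TPM were read beside the sequence that each gene shares with others. For H2-Q4, 53.0% of the 31-base words in its transcripts occur in other genes, H2-Q6 holding 19.5% and the antisense gene Gm11131 16.8%. For H2-D1 the share was 26.9%, with 13.8% in H2-K1, and for H2-K1 it was 22.8%, with 11.1% in H2-D1. For H2-T23 it was 25.8%, with 12.4% in the pseudogene H2-T-ps, and B2m shared no such word with any gene. H2-Q4 thus shared the most sequence of the members with other genes. The shares are not of class I copies alone. Words of H2-D1 occur in 1326 other genes, of H2-T23 in 1255, of H2-Q4 in 312 and of H2-K1 in 38. Tapbp, which is no heavy chain gene, shared 26.9% of its words, with 1749 other genes.

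The intervals were not widest for the members that share the most sequence. Their mean width, as a percent of the posterior mean TPM, was 1.13% for H2-D1, 1.23% for B2m, 2.47% for H2-K1, 3.47% for H2-T23 and 4.66% for H2-Q4. Relative to the 95% width that Poisson counting error alone would give, they were 1.02 times as wide for H2-Q4 and H2-T23, 1.01 for B2m, 1.30 for H2-D1 and 1.76 for H2-K1. The median of 14031 genes was 1.23. Erap1 and Nlrc5 had the widest intervals, 2.85 and 3.04 times the counting width and 14.5% and 20.7% of the level, though Nlrc5 shares only 0.579% of its words with other genes. The probability level of the deposited intervals is not given in the sources used here, and they cover no difference between libraries.

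**Figure D4:**
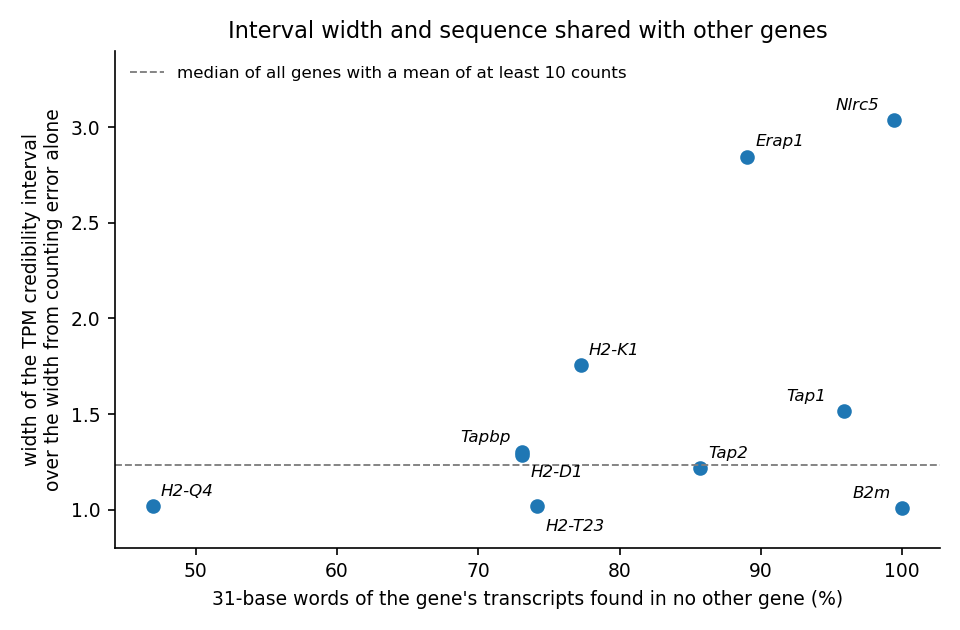
Width of the deposited TPM credibility interval over the width from counting error (mean of 3 libraries) against the percent of each gene's 31-base words found in no other gene. H2-Q4 shares the most sequence yet lies at 1.02, whereas Erap1 and Nlrc5 lie at 2.85 and 3.04; the dashed line is the median of all genes, 1.23.

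For H2-D1 and B2m the deposited TPM lay above its own interval in every library, as did H2-K1 in replicate 1. The interval surrounds the posterior mean instead, which for H2-D1 was 1121, 1110 and 1065 TPM. The gap was smaller than the spread between libraries. Among copies that are no members, H2-Q6 was at 11.1, 7.37 and 7.95 TPM with an interval 1.02 times the counting width, and H2-Q7 at 13.3, 9.37 and 10.59 TPM with 1.36 times.

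The wider pathway was read from lists of genes. All 10 genes of peptide loading and folding in the endoplasmic reticulum were detected, led by the chaperone genes Hspa5 (213 ± 22.7 TPM, n = 3) and Calr, calreticulin (166 ± 11.7 TPM), with Tapbpl, a tapasin homolog, the lowest at 4.80 ± 0.175 TPM. All 9 genes of a list of catalytic proteasome subunits and the proteasome activator were detected, from Psmb6, a constitutive subunit, at 122 ± 7.83 TPM and the activator gene Psme2 at 101 ± 2.78 TPM down to Psme2b at 7.86 ± 1.84 TPM. The immunoproteasome subunits Psmb8, Psmb9 and Psmb10, named besides the rule, were at 49.9 ± 1.52, 17.3 ± 1.64 and 46.8 ± 3.99 TPM. All 7 matched genes of peptide trimming and cytosolic peptidases were detected, at lower levels: Lnpep at 20.1 ± 3.29 TPM, Npepps at 12.5 ± 1.69 TPM and Thop1 at 1.23 ± 0.135 TPM. Median TPM was 51.1 for loading, 46.8 for the proteasome list and 8.50 for peptidases, against 6.79 over the 8699 detected genes and 70.1 for the members. Counts varied beyond counting error for 10 of 10, 9 of 9 and 5 of 7 genes of these lists, beside 62.1% of all genes tested and 91.9% of genes with at least the mean count of Nlrc5.

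Of 17 factors known from class I promoters, 15 were detected. Irf1, an interferon regulatory factor, was the highest at 212, 206 and 202 TPM (207 ± 4.94, n = 3), followed by the NF-kB subunit gene Nfkb1 at 82.2 ± 8.80 TPM. Ciita, the class II counterpart of Nlrc5, was the lowest at 1.40, 0.67 and 1.05 TPM. Both transactivators were lowest in replicate 2, as were 10 of the 15 detected factors and 63.5% of all detected genes. Ciita itself did not reach detection. Of 14 genes of surface turnover and cross-presentation 13 were detected, led by Cybb, the catalytic subunit of the phagocyte oxidase (191 ± 25.4 TPM), and Unc93b1 (126 ± 7.78 TPM), with the ubiquitin ligase gene March9 the lowest at 0.24 ± 0.0625 TPM. Dispersion calls were made for 14 of 17 and 13 of 14 genes of these lists. The share was again 62.1% of all genes tested and 91.9% of genes with at least the mean count of Nlrc5.

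**Figure D5:**
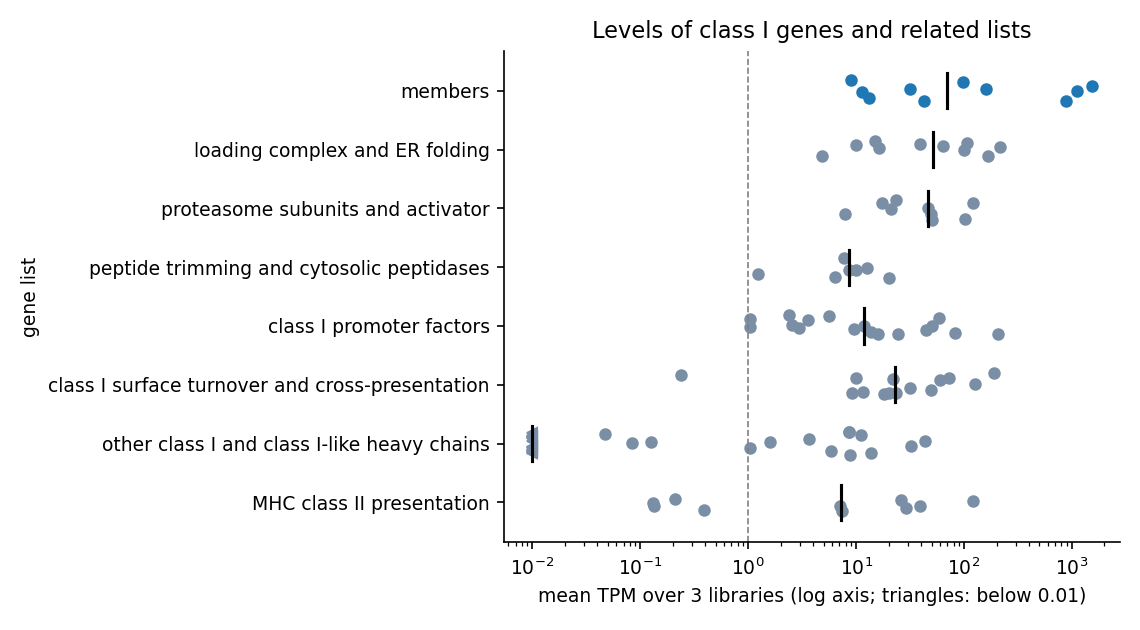
Mean TPM over 3 libraries (log axis) of the 10 members and of each gene in the related lists; each point is a gene, vertical bars are list medians, triangles are genes below 0.01 TPM and the dashed line is the detection level of 1 TPM. Members, loading genes and proteasome genes lie mostly above 10 TPM, whereas most other class I heavy chain genes lie below 1 TPM.

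The cells carried macrophage markers. All 10 markers listed were detected, with a summed level of 6028 to 6610 TPM. None of 8 dendritic cell markers was detected (summed level 2.40 to 3.69 TPM), and the T cell gene Cd3d was at 0 in every library. Detected exceptions were Ighm among 6 B cell genes (2.45 ± 0.346 TPM), Cd4 among 7 T and natural killer cell genes (18.2 ± 0.666 TPM), Kdr among 6 stromal and endothelial genes (2.45 ± 0.430 TPM) and 2 of 6 neutrophil genes, S100a9 and S100a8 (13.5 ± 1.72 and 8.32 ± 1.26 TPM), with Ly6g at 0. In such bulk RNA, fewer cells of a type and less RNA per cell cannot be told apart. Total expected counts were 31152786, 114031592 and 59693298 in replicates 1, 2 and 3, so counting error was smallest in replicate 2.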

How the data were processed

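Per the deposited text listing, values were made on mm10 with GENCODE M21. The sources used here give no aligner, tool version or strand setting. The authors deposited expected counts, TPM, each transcript's percent of its gene's TPM, and TPM credibility interval bounds (a signal, per the file headers) in RSEM's layout, and TPM and estimated counts in kallisto's layout. TPM divides by effective length, so short transcripts gain TPM from few counts.

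Levels are means ± SD of deposited TPM over 3 libraries of 1 group; ratios were taken within a library. Rescaled TPM uses nuclear protein-coding genes as the total. Rounded to whole numbers, expected counts were scaled with edgeR 4.0.16 (TMM; R 4.3.3); genes with a mean of at least 10 counts entered a chi-square test of dispersion (2 degrees of freedom, Benjamini-Hochberg, threshold 0.05), tested on simulated data. Alternatives used DESeq2 1.42.0 size factors, kallisto's layout, other filters, coding transcripts and left-out libraries. Features other than genes stayed out of the counts of genes.

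All members are described; of each related list the text names the 2 highest genes and the lowest, transcripts with at least 10% of a member's TPM, and paralogs sharing sequence. Related lists held 98 symbols, of which 97 matched. Members and lists were chosen with earlier results of these data known. Promoters came from RefSeq on GRCm38.p6.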

Additional observations from a re-analysis of the deposited data

How the results depend on the processing

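Detection of all 10 members held under a TPM of 0.1, in the second quantification, with coding transcripts alone and without any 1 library (10 to 10), and 8 passed a TPM of 10. Ratios moved by more than 1 SD with the transcripts added, a choice made after seeing the data. In the second quantification the ratio of heavy chains to B2m was 1.26, of Tap1 to Tap2 2.08 and of H2-D1 to H2-K1 1.40. With protein-coding transcripts alone these were 1.13, 9.52 and 2.32, and with coding transcripts of the second quantification 1.08, 7.18 and 2.17. Leaving out 1 library gave 1.34 to 1.46, 2.31 to 2.49 and 1.23 to 1.30. Dispersion was called for 8 to 10 members: 8 without replicate 1 (Tap1 and Tapbp lost), 9 without replicate 2 (Erap1 lost) and 9 without replicate 3 (Tap2 lost), and for 10 under total counts, DESeq2 size factors, no filter, the second quantification and protein-coding genes alone. Over all genes the share called was 37.9% to 49.5% without 1 library, 43.4% with no filter, 74.9% in the second quantification and 61.5% to 62.4% under the other settings. Levels of all 10 members moved by more than 1 SD under rescaled TPM and in the second quantification, whose totals differ, and by coding transcripts for 4 of 10: H2-K1, Tap1, Tap2 and Nlrc5. No paired analysis was possible because the series has 1 group. The 3 libraries without a control group limit every statement to levels and their spread.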

Other observations

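The remaining class I and class I-like heavy chain genes were mostly at or near 0. Of 30 listed, 10 were detected and 14 had 0 counts in every library. Fcgrt, the neonatal Fc receptor heavy chain, which also pairs with B2m, was the highest at 47.0, 40.5 and 43.3 TPM (43.6 ± 3.24, n = 3), about as high as H2-Q4. H2-T22, a ligand of some gamma delta T cell receptors, followed at 37.7, 31.9 and 26.5 TPM (32.0 ± 5.59, n = 3). Of the 13 genes of this list that were tested, 10 varied beyond counting error, beside 62.1% of all genes tested.

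Class II presentation genes varied more between libraries than the class I members did, as a description. Of 10 listed, 6 were detected, and all 6 were lowest in replicate 2 in TPM, as were 63.5% of all detected genes. In CPM, H2-DMb1 was instead lowest in replicate 3 (14.2 against 14.5 in replicate 2). Cd74, the invariant chain, was at 167, 87.5 and 112 TPM and H2-Aa at 56.9, 25.3 and 36.1 TPM; H2-Ob was the lowest of the list at 0.13 ± 0.0265 TPM (n = 3). The highest library exceeded the lowest by 1.62 times in CPM at the list's median, against 1.14 times for the class I members and 1.24 times over all genes tested. For the other class I and class I-like heavy chain genes it was 1.31 times. The class II median includes genes that were not detected. Of the 10 class II genes, 7 varied beyond counting error, beside 62.1% of all genes tested. Nlrc5, with 1.63 times, lay near the class II genes and had its low value in the same library. Malat1 and Neat1 were also lowest in that library, and their part in this was not tested.

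The 22 promoter windows that held all 4 motifs belong to 21 genes. Besides the 4 members, 5 windows belong to other H2 genes: H2-M2, H2-M3, H2-Q7, H2-T22 and the class II gene H2-Aa.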
